A study of Mus musculus with 8 samples.

Results

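The Fxyd genes encode small single-span membrane proteins that bind the sodium pump, the Na,K-ATPase, and adjust how fast it works and how tightly it holds sodium and potassium. The 7 mouse genes *Fxyd1* to *Fxyd7* were taken by symbol from the 47628 entries that name a gene in the count tables, and all 7 were found. They were chosen because *Fxyd1* had been picked by the study from these same libraries as a gene higher in *Opa1*+/- mice. The values of *Fxyd1* between genotypes are therefore described here without a test.

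RNA was sequenced from isolated cochleae of mice that were untreated and 21 days old, 4 of them WT (labelled WT_4, WT_5, WT_6 and WT_8) and 4 *Opa1*+/- (labelled Het_2, Het_7, Het_484 and Het_491). The *Opa1*+/- mice carry 1 knock-in copy of *Opa1* with the delTTAG mutation in every tissue. The WT mice are their control littermates, and the background is mixed from C57BL/6J and 129 Sv/Pas. Sex is not given for the single animals, and the labels name alternative RNA extraction reagents without tying them to a mouse. Each library holds between 15978051 and 20828030 counts on named genes, and 19366 genes had a mean normalised count over 10 and were tested. As a check of the labels, *Opa1* fell from 119.7 ± 6.09 CPM (counts of a gene scaled to a common library size) in WT to 65.6 ± 4.42 CPM in *Opa1*+/- mice (mean ± SD, n = 4 each; log2 fold change -0.87, standard error (SE) 0.0677, adjusted p = 0.00515 in edgeR's quasi-likelihood test). Markers of neurons, hair cells, the stria vascularis and fibrocytes were found in every library. So were markers of tissue around the cochlea: those of skeletal muscle summed to between 226.9 and 2189 CPM in WT and between 18.1 and 1055 CPM in *Opa1*+/- mice, with 0 of 9 higher in *Opa1*+/- mice. Those of red cells were higher in *Opa1*+/- mice for 8 of the 8 found, between 7744 and 21449 CPM in WT and 15057 to 25046 CPM in the *Opa1*+/- group. Those of endothelial cells and pericytes were higher for 9 of 9, with a median log2 fold change of 0.054, and summed to between 485.6 and 570.9 CPM in WT and between 514.5 and 568.2 CPM in *Opa1*+/- mice. None of these markers passed the adjusted threshold in edgeR, beside 0.0258% of all genes tested. Of all genes tested, 50.1% had a fitted log2 fold change above 0.

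The sodium pump pairs a catalytic alpha subunit with a beta subunit, and an FXYD protein can join them as a regulatory part. In the cochlea the pump works in the stria vascularis and the lateral wall, where it helps to keep the potassium-rich endolymph, and in the auditory neurons, where it restores the ion gradients after firing. *Fxyd1* (phospholemman) is known from heart and skeletal muscle as a target of protein kinases A and C, and *Fxyd2* is the gamma subunit of the kidney pump. *Fxyd3* and *Fxyd4* are best known from epithelia, *Fxyd5* (dysadherin) also affects cell adhesion, and *Fxyd6* (phosphohippolin) and *Fxyd7* are known from brain.

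The motif that names the family, PFXYD, is shown for each member because it is the stretch the genes share. Each stretch below is 60 bases of coding sequence, 5′ to 3′ in the sense of the mRNA, with the exons joined (GENCODE vM21, GRCm38), and the 15 bases of the motif's 5 codons are in capitals.
Fxyd1: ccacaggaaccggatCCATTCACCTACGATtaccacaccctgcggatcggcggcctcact
Fxyd2: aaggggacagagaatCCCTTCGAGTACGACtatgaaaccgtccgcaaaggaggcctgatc
Fxyd3: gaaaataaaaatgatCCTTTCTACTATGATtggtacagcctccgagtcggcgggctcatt
Fxyd4: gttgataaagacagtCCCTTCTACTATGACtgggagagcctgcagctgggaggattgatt
Fxyd5: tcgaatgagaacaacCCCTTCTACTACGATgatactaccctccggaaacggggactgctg
Fxyd6: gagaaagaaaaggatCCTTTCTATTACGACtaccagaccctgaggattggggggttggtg
Fxyd7: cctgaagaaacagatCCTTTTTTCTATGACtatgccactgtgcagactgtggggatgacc
Of the 7 members, all had the same base at 8 of the 15 motif positions. The codons of the fixed amino acids leave no choice at these positions, so this count follows from how the stretches were picked. In every member the motif was split by an exon junction. The motif was searched in frame, on the coding strand, in the coding sequences of 21550 genes, and 34 of them (0.158%) held it, the 7 members included. The coding sequences were short, between 64 codons in *Fxyd2* and 99 codons in *Fxyd4*, except in *Fxyd5* with 185 codons, where the motif began at codon 135. The longest identical run between the transcripts of any pair was 38 bases (*Fxyd2* and *Fxyd5*), shorter than the 80-base reads.

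The motif of *Fxyd1* spans chr7:31053473-31053905 in exons 3 and 4 on the minus strand, and that of *Fxyd7* spans chr7:31045026-31047385 in exons 2 and 3. *Fxyd5* holds it at chr7:31035282-31035398 in exons 7 and 8 and *Fxyd3* at chr7:31071365-31072087 in exons 4 and 5, both also on the minus strand. *Fxyd6* holds it at chr9:45390660-45390778 in exons 3 and 4 and *Fxyd2* at chr9:45408132-45408301 in exons 2 and 3, both on the plus strand. In *Fxyd4* it lies at chr6:117934499-117935021, in exons 5 and 6 on the minus strand.

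Of the 7 members, 6 passed the minimum count, with between 318 and 3099 counts in each library. *Fxyd4* did not pass. It had 2, 4, 1 and 2 counts in WT_4, WT_5, WT_6 and WT_8, and 6, 0, 6 and 0 counts in Het_2, Het_7, Het_484 and Het_491. A count of 0 allows up to 3 counts, which is 0.1504 CPM in Het_7 and 0.191 CPM in Het_491, covering counting error only. At this depth no difference of *Fxyd4* between genotypes could be seen, and no fold change is given.

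*Fxyd1* stood at 93.2, 92.5, 106.3 and 97.3 CPM in WT_4, WT_5, WT_6 and WT_8, and at 121.4, 125.3, 120.8 and 132.8 CPM in Het_2, Het_7, Het_484 and Het_491. The 4 *Opa1*+/- levels all exceeded the 4 WT levels, with a gap between 106.3 CPM in WT_6 and 120.8 CPM in Het_484. The means ± SD (n = 4 each) were 97.3 ± 6.34 CPM in WT against 125.1 ± 5.53 CPM in *Opa1*+/- mice, and the log2 fold change was 0.36 (SE 0.0650). Leaving out each mouse in turn gave a log2 fold change between 0.33 and 0.41. The gene was chosen on this contrast, so its separation is no support: over all genes tested, 1.98% had all 4 *Opa1*+/- levels above all 4 WT levels. In RNA of a whole cochlea, more cells that express a gene and more RNA of it per cell cannot be told apart.

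**Figure D1:**
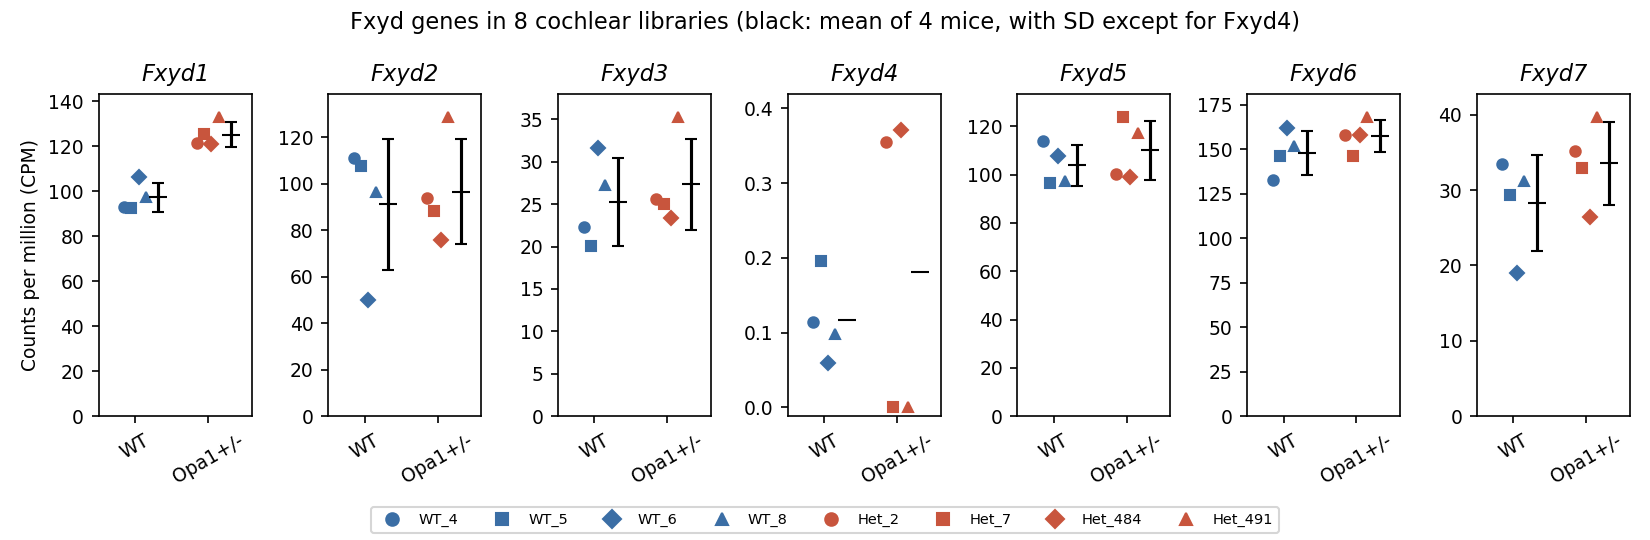
Level of each Fxyd gene in CPM in 4 WT (blue) and 4 *Opa1*+/- (red) mice, 1 panel a gene with its own axis from 0; symbols mark the mice and black marks the mean of 4 mice with the SD (no SD for *Fxyd4*). The *Fxyd1* levels run from 92.5 to 106.3 CPM in WT and from 120.8 to 132.8 CPM in *Opa1*+/- mice, while the levels of the other members overlap between the genotypes.

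Among the 5 other members tested, *Fxyd2*, *Fxyd3*, *Fxyd5*, *Fxyd6* and *Fxyd7*, 0 passed an adjusted p of 0.05 in edgeR's quasi-likelihood test, beside 0.0258% of all genes (5 of 19366), and 0 passed in DESeq2's Wald test, beside 0.119% (23 of 19366). An unadjusted p under 0.05 was found for 0 of the 5, beside 6.72% of all genes. For 0 of the 5 did every *Opa1*+/- mouse lie above, or every one below, all WT mice, the latter beside 2.33% of all genes. All 5 fitted log2 fold changes were above 0, with a median of 0.089, beside 50.1% of all genes above 0 and a median of 0.00040 over them. For *Fxyd2* and *Fxyd3* that sign turned when a single mouse was left out.

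*Fxyd6*, the member with the most counts, was measured at 132.5, 146.4, 162.1 and 151.7 CPM in WT_4, WT_5, WT_6 and WT_8, and at 158.1, 146.2, 158.4 and 168.0 CPM in Het_2, Het_7, Het_484 and Het_491. WT_4 was lowest and Het_491 highest, and the genotypes overlapped. The log2 fold change was 0.09 (SE 0.0754, 95% interval -0.08 to 0.26, adjusted p = 0.837 in edgeR), and it was 0.040 without WT_4, 0.054 without Het_491 and 0.14 without WT_6.

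For *Fxyd5* the levels were 113.8, 96.5, 107.5 and 97.2 CPM in the same order of WT mice and 100.4, 123.6, 99.0 and 117.1 CPM in *Opa1*+/- mice. In each genotype a pair of mice lay high and a pair low, so that the levels interleaved. Its log2 fold change was 0.09 (SE 0.0917, 95% interval -0.12 to 0.29, adjusted p = 0.878 in edgeR). Leaving out 1 mouse moved it to between 0.024 (without Het_7) and 0.14 (without Het_484), and by over 1.5 times also without WT_4, WT_5, WT_8, Het_2 or Het_491.

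*Fxyd2* varied most among the tested members. It was at 111.1, 107.6, 50.1 and 96.4 CPM in WT mice and at 93.8, 88.4, 75.8 and 128.5 CPM in *Opa1*+/- mice, listed in the same order. WT_6 had the lowest level of all 8 mice, and its library also had the highest summed level of skeletal muscle markers, 2189 CPM, and of meningeal markers, 14232 CPM. The log2 fold change was 0.08 (SE 0.243, 95% interval -0.46 to 0.63, adjusted p = 0.960 in edgeR). It became -0.12 without WT_6 and -0.089 without Het_491.

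*Fxyd7* was low in the same mice as *Fxyd2*. WT_4, WT_5, WT_6 and WT_8 had 33.4, 29.4, 19.0 and 31.2 CPM, and Het_2, Het_7, Het_484 and Het_491 had 35.2, 33.0, 26.4 and 39.6 CPM. Its log2 fold change was 0.24 (SE 0.175, 95% interval -0.15 to 0.64, adjusted p = 0.807 in edgeR). It was 0.097 without WT_6, 0.15 without Het_491 and 0.35 without Het_484.

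*Fxyd3* had 22.3, 20.0, 31.7 and 27.2 CPM in WT and 25.6, 25.1, 23.4 and 35.2 CPM in *Opa1*+/- mice. WT_6 and Het_491 were the highest of their genotypes. The log2 fold change was 0.11 (SE 0.166, 95% interval -0.26 to 0.49, adjusted p = 0.918 in edgeR), and it was -0.036 without Het_491, 0.014 without WT_5 and 0.24 without WT_6.

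The members differed in how much they varied between mice of 1 genotype. The coefficient of variation (SD over mean, n = 4) was 6.52% in WT and 4.42% in *Opa1*+/- mice for *Fxyd1*, 8.32% and 5.65% for *Fxyd6*, and 8.09% and 11.1% for *Fxyd5*. It was larger for *Fxyd7*, at 22.6% and 16.5%, for *Fxyd3*, at 20.6% and 19.6%, and for *Fxyd2*, at 30.9% and 23.4%.

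To compare levels between genes, CPM was divided by the bases of all annotated exons of a gene joined together (CPM per kilobase). On this scale the mean level over the 8 mice was 50.9 for *Fxyd1*, 44.6 for *Fxyd7*, 37.2 for *Fxyd6*, 25.5 for *Fxyd5*, 23.5 for *Fxyd2*, 5.42 for *Fxyd3* and 0.0762 for *Fxyd4*. Several neighbours in this order did not differ beyond their spread: *Fxyd1* was above *Fxyd7* in 1 of 4 WT and 4 of 4 *Opa1*+/- mice (means of 44.5 against 40.8 in WT and 57.2 against 48.4 in *Opa1*+/-), *Fxyd7* above *Fxyd6* in 6 of 8, and *Fxyd5* above *Fxyd2* in 4 of 8. The steps from *Fxyd6* to *Fxyd5*, from *Fxyd2* to *Fxyd3* and from *Fxyd3* to *Fxyd4* held in 8 of 8 mice.

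The order depended on the length. Of the 13 annotated transcripts of *Fxyd2* only 4 are protein-coding, and its joined exons cover 4005 bases while its longest protein-coding transcript has 684 bases. Per kilobase of the longest protein-coding transcript, *Fxyd1* was at 179.3, *Fxyd2* at 137.4, *Fxyd6* at 85.5, *Fxyd7* at 44.6, *Fxyd5* at 35.7, *Fxyd3* at 9.09 and *Fxyd4* at 0.124. *Fxyd2* thus moved from below *Fxyd5* to the place next to *Fxyd1*, and was below *Fxyd1* in 2 of 4 WT and 4 of 4 *Opa1*+/- mice. *Fxyd3* and *Fxyd4* came last by both lengths, while in WT mice no member was first in all 4 by either length.

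**Figure D2:**
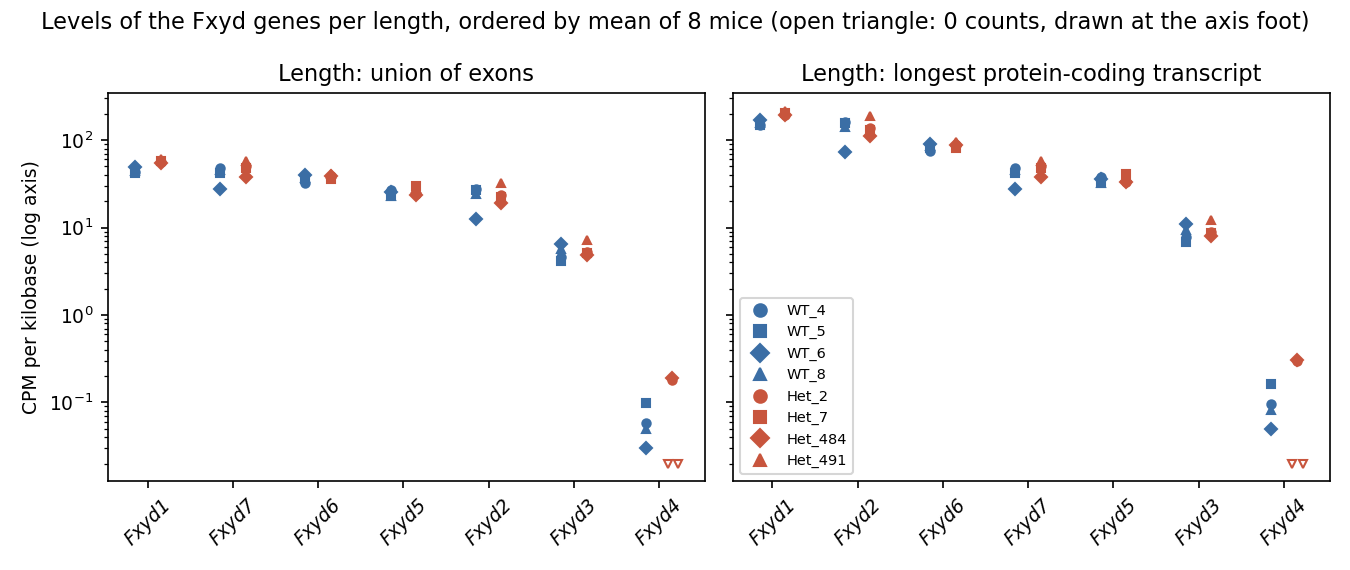
CPM per kilobase (log axis) of each Fxyd gene in 8 mice, WT in blue and *Opa1*+/- in red, divided by the joined exons (left) or by the longest protein-coding transcript (right); open triangles at the foot are the 2 mice with 0 counts of *Fxyd4*. *Fxyd1* is above *Fxyd7* on the left in 1 of 4 WT and 4 of 4 *Opa1*+/- mice and above *Fxyd2* on the right in 2 of 4 and 4 of 4, while the *Fxyd2* mean is 23.5 on the left and 137.4 on the right.

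As a share of the summed CPM per kilobase of the family (joined exons), *Fxyd1* made up 23.3%, 24.2%, 30.3% and 24.8% in WT_4, WT_5, WT_6 and WT_8. In Het_2, Het_7, Het_484 and Het_491 it made up 28.1%, 29.1%, 30.8% and 26.9%. The shares overlapped between the genotypes, since WT_6, in which *Fxyd2* and *Fxyd7* were low, had a share above 3 of the 4 *Opa1*+/- mice. *Fxyd2* made up between 7.80% and 15.4% of the family in WT and between 10.5% and 14.2% in *Opa1*+/- mice. By the longest protein-coding transcript, *Fxyd2* made up between 17.9% and 33.8% in WT and between 23.4% and 31.1% in *Opa1*+/- mice, and *Fxyd1* between 31.3% and 41.9% in WT and between 35.4% and 41.1% in *Opa1*+/- mice.

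Subunits of the pump were set beside its regulators on the same scale. Per kilobase of joined exons and as the mean of 8 mice, the beta subunits stood at 311.7 for *Atp1b1*, 87.3 for *Atp1b2* and 141.7 for *Atp1b3*, each above every Fxyd gene. *Atp1a4*, a catalytic subunit known from testis, stood at 2.56. On the longest-transcript scale *Fxyd1* had means of 157.0 in WT and 201.7 in *Opa1*+/- mice. Those of *Atp1b2* were 135.7 and 115.2, and those of *Atp1b3* 176.6 and 163.0. This order thus rests on the length used. For *Atp1b3* it also differed between the genotype means, a contrast on which *Fxyd1* was chosen. In WT_4 *Fxyd1* (150.3) was already above *Atp1b3* (148.8). The mean of 8 mice was 137.4 for *Fxyd2* against 125.5 for *Atp1b2*.

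Of 5 pump subunit genes examined 4 were tested, and *Atp1b4* was below the minimum, with between 1 and 11 counts in each library, most of them in WT_6 (9) and Het_7 (11). By edgeR 0 of the 4 were called (0.0258% of all genes), by DESeq2 0 (0.119%), and 0 had an unadjusted p under 0.05 (6.72%). The fitted log2 fold changes were below 0 for 3 and above 0 for 1, beside 50.1% of all genes above 0, with a median of -0.12.

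The 3 beta subunits tested had fitted values below 0 that did not pass. *Atp1b1* was at 1001 ± 114.0 CPM in WT against 919.7 ± 26.2 CPM in *Opa1*+/- mice (mean ± SD, n = 4 each, as for the subunits that follow), a log2 fold change of -0.12 (SE 0.0842). *Atp1b2* was at 385.7 ± 106.7 and 327.5 ± 47.8 CPM, a log2 fold change of -0.24 (SE 0.188). *Atp1b3* was at 352.1 ± 47.6 and 324.9 ± 12.04 CPM, a log2 fold change of -0.12 (SE 0.0943). *Atp1a4* was at 8.62 ± 1.05 and 10.2 ± 1.94 CPM, a log2 fold change of 0.25 (SE 0.153). The adjusted p of the 4 subunits in edgeR ran from 0.785 for *Atp1a4* to 0.831 for *Atp1b3*. Of the markers tested, 1 of 6 for strial marginal cells and 2 of 8 for fibrocytes were higher in *Opa1*+/- mice. The median log2 fold changes were -0.16 and -0.14, and 0 of these markers were called by edgeR (0.0258% of all genes). Their part in the subunit values was not tested.

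The subunit fold changes moved when single mice were left out. Without WT_6 the log2 fold changes of *Atp1b1*, *Atp1b2* and *Atp1b3* were -0.061, -0.057 and -0.032. Without WT_4 they were -0.18, -0.38 and -0.19, with unadjusted p of 0.0393, 0.0332 and 0.0411 and adjusted p of 0.459, 0.449 and 0.459 in edgeR. That of *Atp1a4* was 0.13 without Het_7 and 0.33 without Het_484.

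**Figure D3:**
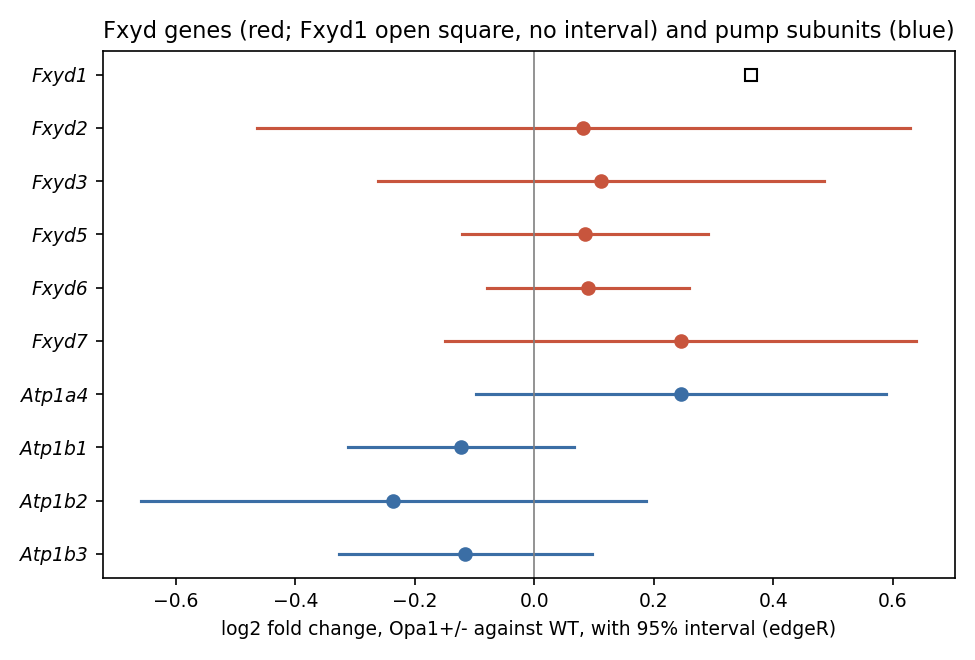
Log2 fold change, *Opa1*+/- against WT, of the 6 tested Fxyd genes and 4 tested pump subunits, with 95% intervals from edgeR; *Fxyd1* (open square, 0.36) is drawn without an interval because it was chosen on this contrast. All 9 intervals shown include 0, and the 3 beta subunits lie between -0.24 and -0.12.

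A wider list of 26 genes was examined, covering pump-binding and FXYD-modifying proteins, sodium-calcium exchangers, potassium and chloride transport of the stria, and related proton pumps. Of these 22 were tested and 0 were called by edgeR (0.0258% of all genes) or by DESeq2 (0.119%), and 0 had an unadjusted p under 0.05 (6.72%). The median log2 fold change was -0.013, with 9 above 0 (40.9%) and 13 below, beside 50.1% of all genes above 0. The lowest unadjusted p values belonged to *Slc12a2*, the sodium-potassium-chloride cotransporter of strial marginal cells, to *Slc8a3*, a sodium-calcium exchanger, and to *Ppp1ca*, a catalytic subunit of protein phosphatase 1.

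The *Slc12a2* levels were 290.6, 448.2, 554.9 and 463.5 CPM in WT_4, WT_5, WT_6 and WT_8 and 383.6, 359.1, 434.6 and 310.8 CPM in Het_2, Het_7, Het_484 and Het_491, with overlapping groups (log2 fold change -0.24, SE 0.179, adjusted p = 0.818 in edgeR). For *Slc8a3* the log2 fold change was -0.17 (SE 0.151, adjusted p = 0.846 in edgeR) and for *Ppp1ca* 0.05 (SE 0.0544, adjusted p = 0.891 in edgeR). *Prkaca* and *Prkca*, subunits of the kinases that act on phospholemman, were at 104.6 ± 6.92 and 91.0 ± 12.1 CPM (SD, n = 4) in WT and at 106.0 ± 3.63 and 91.7 ± 6.33 CPM in *Opa1*+/- mice. They fall outside the rule for named genes and were added after their values were seen.

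*Fxyd5*, *Fxyd7*, *Fxyd1* and *Fxyd3* lie together on chromosome 7, all read from the minus strand (GRCm38). *Fxyd5* occupies chr7:31032722-31042481, *Fxyd7* chr7:31042513-31051467, *Fxyd1* chr7:31051678-31057199 and *Fxyd3* chr7:31068172-31076704. Only 31 bases separate the annotated spans of *Fxyd5* and *Fxyd7*, and 210 bases those of *Fxyd7* and *Fxyd1*. *Fxyd6* (chr9:45370185-45396159) and *Fxyd2* (chr9:45399669-45410278) form a second pair on the plus strand of chromosome 9, with 3509 bases between them, and *Fxyd4* (chr6:117933559-117937692) stands alone. Between *Fxyd1* and *Fxyd3* begins *Lgi4* (chr7:31059342-31070935), read from the plus strand, which encodes a protein that Schwann cells secrete to make myelin.

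**Figure D4:**
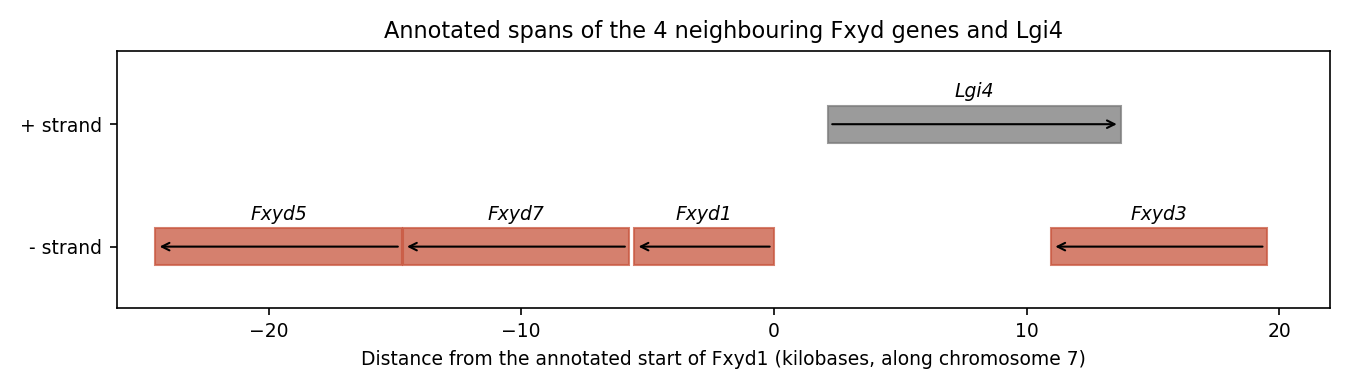
Annotated gene spans on the minus strand (Fxyd genes, red) and on the plus strand (*Lgi4*, grey) of chromosome 7, drawn to scale against the distance in kilobases from the annotated start of *Fxyd1*; arrows give the direction of reading. *Fxyd5*, *Fxyd7* and *Fxyd1* follow each other with gaps of 31 and 210 bases, and the ends of *Lgi4* and *Fxyd3* overlap.

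Next to *Fxyd1*, with a log2 fold change of 0.36, stood *Fxyd7* at 0.24 (SE 0.175) and beyond it *Fxyd5* at 0.09 (SE 0.0917), neither of which passed. *Lgi4*, 2142 bases away on the other strand, had 35.6, 37.8, 23.8 and 36.1 CPM in WT_4, WT_5, WT_6 and WT_8 and 55.0, 42.9, 43.9 and 39.1 CPM in Het_2, Het_7, Het_484 and Het_491. The *Opa1*+/- levels of *Lgi4* all exceeded the WT levels (as for 1.98% of all genes), but its log2 fold change of 0.44 (SE 0.152) did not pass, with an adjusted p of 0.722 in edgeR. Beside it, 15 of 16 Schwann cell and myelin markers had a fitted log2 fold change above 0, with a median of 0.16 over the 16. Of all genes tested, 50.1% were above 0. Of these markers 0 passed in edgeR, beside 0.0258% of all genes. Their sums ran from 3978 to 5356 CPM in WT and from 4702 to 6290 CPM in *Opa1*+/- mice, and no marker was at 0. Their part in the *Lgi4* values was not tested.

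*Lgi4* matters for reading *Fxyd3*, since 2059 of the 4850 exon bases of *Fxyd3* (42.5%) are also exon bases of *Lgi4* on the opposite strand. The sources used here do not say whether strand was used in counting, so reads in these bases cannot be assigned with certainty and the level of *Fxyd3* is uncertain. *Fxyd5* shares 60 of its exon bases (1.43%) with *Mir7050*, which had 0 counts in all 8 mice, and the other members share no exon bases with another annotated gene. The nearest genes beyond the members were *Fam187b* on the far side of *Fxyd5*, *Hpn* beyond *Fxyd3*, *Tmprss13* and *Dscaml1* around the chromosome 9 pair, and *Hnrnpf* and *Rasgef1a* around *Fxyd4*. Their fitted log2 fold changes lay between -0.19 for *Tmprss13* and 0.00 for *Rasgef1a* and did not pass.

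How the members moved together from mouse to mouse was described after the mean of each genotype had been subtracted from the log2 CPM, which removes the genotype difference. The 8 mice of each correlation share their libraries, depth and tissue make-up, and no p is given. For each pair, r was also computed without the 2 mice farthest from the median of the lower-numbered member. Of the 15 pairs of tested members, 2 had a Pearson r over 0.9. *Fxyd2* and *Fxyd7*, on different chromosomes, had r = 0.96 and Spearman rho = 0.95 (n = 8 mice), and r = 0.83 without the 2 mice farthest from the median, WT_6 and Het_484. Both genes were lowest in these 2 mice.

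*Fxyd1* and *Fxyd3* had r = 0.94 and rho = 0.88 (n = 8 mice), and r = 0.79 without WT_6 and Het_491, in which both genes were highest within their genotype. *Fxyd1* and *Fxyd7*, which are 210 bases apart, had r = -0.39 (rho = -0.33), which became 0.015 without WT_6 and Het_491. *Fxyd2* and *Fxyd6*, the pair of chromosome 9, had r = -0.40 (rho = -0.26), which turned to 0.24 without WT_6 and Het_484. *Fxyd5* and *Fxyd7*, 31 bases apart, had r = 0.17 (rho = 0.33) and -0.038 without WT_4 and Het_7. None of these 3 relations between neighbours held without the 2 mice left out. *Lgi4* ran against *Fxyd1* within the genotypes (r = -0.88, rho = -0.74), although both stood higher in *Opa1*+/- mice. Without WT_6 and Het_2, the mice farthest from the median of *Lgi4*, r was -0.78. Het_491, in which *Fxyd1* was highest and *Lgi4* lowest of the *Opa1*+/- mice, stayed in. For this relation r without WT_6 and Het_491 was not computed. With *Fxyd3*, whose exons it overlaps, *Lgi4* had r = -0.70 (rho = -0.50; r = -0.62 without WT_6 and Het_2).

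**Figure D5:**
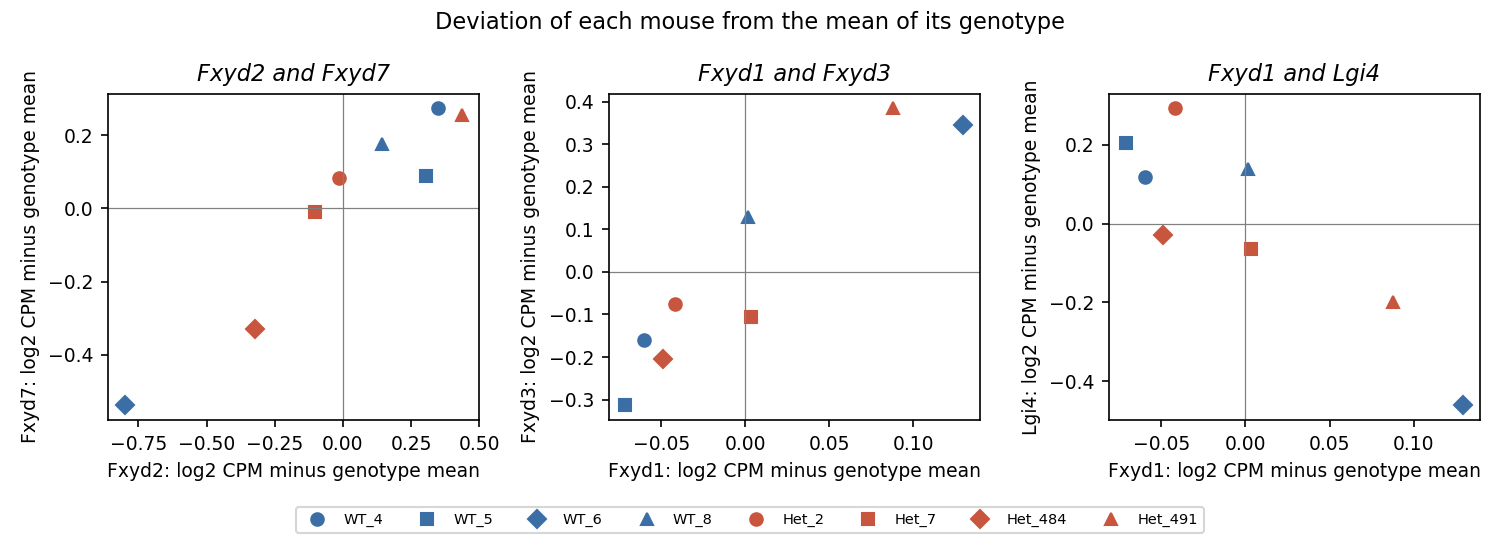
Each mouse's log2 CPM minus the mean of its genotype, for *Fxyd2* and *Fxyd7* (left), *Fxyd1* and *Fxyd3* (middle) and *Fxyd1* and *Lgi4* (right); blue is WT and red *Opa1*+/-, with a symbol for each mouse. *Fxyd2* and *Fxyd7* rise together (r = 0.96), with WT_6 and Het_484 at the low end, and *Lgi4* runs against *Fxyd1* (r = -0.88).

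Relations with marker sums, pump subunits and *Lgi4* left out the 2 mice farthest in these, not in the member. In all, 132 relations of a member with a marker sum, a pump subunit or *Lgi4* were computed, otherwise in the same way. In 10 of them r was over 0.8 in either direction, a limit set after the values were seen, and these are given here and, for *Fxyd1* and *Lgi4*, above. *Fxyd1* moved with the summed meningeal and perineurial markers (r = 0.90, rho = 0.83; r = 0.77 without WT_5 and WT_6), and so did *Fxyd3* (r = 0.84, rho = 0.76; r = 0.68 without the same mice). The 9 meningeal and perineurial markers summed to 7623, 6395, 14232 and 10118 CPM in WT_4, WT_5, WT_6 and WT_8 and to 7819, 9720, 10228 and 11819 CPM in Het_2, Het_7, Het_484 and Het_491, with 2 of 9 higher in *Opa1*+/- mice and none at 0. The sums overlapped between the genotypes, with the highest in WT_6, and their part in the *Fxyd1* and *Fxyd3* levels was not tested. The 5 heart muscle markers examined summed to between 5.08 and 6.15 CPM in WT and between 4.28 and 7.92 CPM in *Opa1*+/- mice, and 3 of them, *Myh6*, *Myl7* and *Nppa*, had a mean under 1 CPM.

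*Fxyd6* moved with the markers of strial intermediate cells and melanocytes (r = 0.96, rho = 0.93; r = 0.88 without WT_4 and WT_6). It also moved with *Atp1b3* (r = 0.94, rho = 0.98; r = 0.95 without the same mice), with *Atp1b1* (r = 0.90, rho = 0.93; r = 0.68) and with the hair cell markers (r = 0.90, rho = 0.83; r = 0.68 without WT_4 and WT_6). The 7 intermediate cell markers summed to between 307.2 and 602.2 CPM in WT and between 378.2 and 524.9 CPM in *Opa1*+/- mice, lowest in WT_4, in which *Fxyd6* was lowest too, and none was at 0.

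*Fxyd2* ran against the summed skeletal muscle markers (r = -0.80, rho = -0.90; r = -0.92 without Het_7 and Het_491). *Fxyd5* moved with *Atp1a4* (r = 0.94, rho = 0.98; r = 0.93 without WT_5 and Het_484) and ran against the markers of airway and squamous epithelium (r = -0.82, rho = -0.81; r = -0.72 without WT_4 and Het_491). The 8 airway and squamous epithelium markers summed to between 299.3 and 415.7 CPM in WT and between 292.9 and 393.5 CPM in *Opa1*+/- mice. What part tissue make-up has in any of these levels was not tested.

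Over the 13934 genes with a mean over 5 CPM, the 3 genes most like each member within the genotypes were found by the same Pearson r over 8 mice. For *Fxyd1* they were *Gpr4*, *Adcy1* and *Zfp706* (each r = 0.99), and 251 genes had r over 0.9 with it. For *Fxyd2* they were *Rpl23a-ps5* (r = 0.996), *Pgam5* (r = 0.99) and *Asic2*, an acid-sensing sodium channel (r = 0.98), of 206 over 0.9. For *Fxyd7* they were *Susd2*, *Ap3m1-ps* and *Gm4754* (each r = 0.99), of 188 over 0.9. Pseudogenes among them can share reads with their parent genes.

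For *Fxyd3* the most alike were *Zfp444* (r = 0.99), *Slc22a2* (r = 0.98) and *Arl2* (r = 0.97), of 118 over 0.9. Those of *Fxyd6* were *Rnpep*, *Tmem101* and *Tex264* (each r = 0.98), of 110 over 0.9. *Fxyd5* had the fewest genes over 0.9, 27, led by *Dnajc5* (r = 0.99), *Fgf1* (r = 0.98) and *Tonsl* (r = 0.97).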

How the data were processed

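Cochlear RNA of 4 WT and 4 *Opa1*+/- mice was prepared by the authors with the CORALL kit, sequenced as paired reads of 80 nucleotides and mapped to GRCm38 with STAR; molecular identifiers were used against amplification bias. The authors deposited raw counts per gene symbol for each mouse, neither normalized nor filtered. The study's methods name the CORALL Data Analysis Pipeline for the raw data; the counting program within it and its use of strand are not given in the sources used here. The 15 entries with a number in place of a symbol (between 0.112% and 0.124% of counts) were left out.

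Library sizes were the counts on all named entries, scaled by TMM factors (0.948 to 1.06). Genes with a mean count over 10 after DESeq2 size factors were tested with edgeR 4.0.16 (quasi-likelihood, Benjamini-Hochberg adjustment over 19366 genes, threshold 0.05), in R 4.3.3. Each SE was derived from the fold change and its F statistic. On simulated counts the fit was tested for the recovery of known changes, and the outcome is not reported here. P-values set the genotype difference against the spread between these 8 mice, with each gene's spread drawn toward that of other genes. DESeq2 1.42.0, limma 3.58.1 (voom with quality weights), other scalings and filters, each mouse left out, and both *Opa1*+/- mice with 3-digit numbers left out were the alternatives.

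Positions, lengths and sequences come from GENCODE vM21. Genes named are the members, *Opa1*, 4 tested pump subunits, the 3 partners with the lowest p (none passed the threshold), the 3 genes most like each member (mean over 5 CPM), and neighbouring or overlapping genes. Outside this rule, *Atp1b4*, *Prkaca*, *Prkca* and markers of low level are named, chosen after their values were seen. Some genes are not reported here. The members and lists were chosen with earlier results of these data known. Python 3.11.15 and matplotlib 3.10.9 drew the plots.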

Additional observations from a re-analysis of the deposited data

Results flagged for a closer look

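Among 58 groups of 4 mice examined (levels of the members and pump subunits, and marker sums, in each genotype), 5 had a mouse apart from the other 3 by more than Dixon's 95% critical value, which limits the gap to the nearest mouse over the range. Chance flags about 1 in 20 groups. No Fxyd gene was among them. *Atp1b4*, which was below the minimum count, was at 0.538 CPM in WT_6 and at 0.551 CPM in Het_7, each above the other mice of its genotype. The summed skeletal muscle markers in WT_6 were at 2188.6 CPM, the neutrophil and marrow markers in WT_4 at 1420.7 CPM and the choroid plexus markers in WT_5 at 249.5 CPM, each above the other WT mice.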

How the results depend on the processing

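The counts of called genes among *Fxyd2* to *Fxyd7*, the pump subunits and the pump partners were 0 in all 17 alternatives. The *Fxyd1* log2 fold change stayed above 0, between 0.33 and 0.41, but the gene was chosen on this contrast, so this is no support. Over all genes, 5 were called, against 23 with DESeq2, 10 with limma voom, 10 with robust estimation, 12 without a filter, between 0 and 9 with 1 mouse left out (0 without Het_2), and 0 without both *Opa1*+/- mice with 3-digit numbers. The sign turned for *Fxyd2* with limma voom (-0.054), without both 3-digit mice (-0.0031) and with 1 mouse left out (range -0.12 to 0.19; -0.12 without WT_6, -0.089 without Het_491), and for *Fxyd3* without Het_491 (-0.036; range to 0.24). The cause was not tested. No paired analysis by litter was possible because the litter of the single animals is not given in the sources used here. Depth limited *Fxyd4*, with between 0 and 6 counts a library, and counting error and the spread between mice were not separated for the other members.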
